A study of Homo sapiens with 5 samples.

Results

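The levels of 9 genes of plasminogen activation and blood coagulation were followed in human esophageal squamous cell carcinoma (ESCC) cells from culture into the mouse lung. The genes were taken from a list by symbol, with no threshold on a measured value, and are 9 of the 33538 genes in the files. The list was drawn up with earlier results of these data known, so counts of members beside all genes are descriptions. The 9 genes are the activators PLAU and PLAT, the receptor PLAUR, the protease inhibitor SERPINE2, the coagulation initiator F3, the inhibitors TFPI and TFPI2, and the anticoagulant receptors THBD and PROCR. Each of the 9 reached at least 5 CPM (UMIs of the gene per 1000000 UMIs) in 1 library or more.

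Plasminogen is a plasma protein that urokinase (PLAU) and tissue-type plasminogen activator (PLAT) cut into plasmin, a protease that dissolves fibrin and degrades matrix proteins. PLAUR holds urokinase at the cell surface, and serpins such as SERPINE2 (protease nexin-1) block the activators. Tissue factor (F3) starts coagulation by binding factor VIIa, TFPI blocks that step, and thrombomodulin (THBD) and the protein C receptor (PROCR) direct thrombin towards activation of the anticoagulant protein C. Tumor cells carried by the blood lodge in lung capillaries, where they are in contact with the plasma that holds these zymogens.

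KYSE30-Luc-GFP is an established ESCC line that carries luciferase and green fluorescent protein. A single library was made of the parental culture, and 1 each of cells recovered from the lungs of NOD SCID mice at 6 h and 48 h and, later, at 2 and 4 months after tail vein injection. These mice have no functional T and B cells. The lungs were digested with enzymes, mouse cells were depleted and GFP-positive cells were sorted, and several mice were pooled at 6 h, 48 h and 2 months while a single mouse was used at 4 months. The barcodes carry no label of the mouse and every timepoint is 1 library, so no test between timepoints is possible, and every interval below covers counting error in these cells only. Consecutive comparisons share a library.

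Of 26712 barcodes, 19986 passed the filter (200 to 8000 genes, 1000 UMIs or more, and mitochondrial UMIs up to 15%), with 1149 to 9059 cells a library and a median of 12979 UMIs a cell at 6 h to 39076 at 48 h. Library pairs shared 6 to 91 barcodes. The parental culture was split by a signature of 6 genes that holds none of the 9: a cell with a UMI of C19orf33, S100A14 or RHOD and a UMI of CST6, CD44 or TM4SF1 was called signature-positive. Such cells were 14.4% of the culture, 97.9% of cells at 6 h, 95.6% of those at 48 h, and 81.1% and 98.4% after 2 and 4 months. The study chose these genes in part for detection in most 6 h cells. That choice partly fixes the 6 h share. Whether the lung cells came from the signature-positive culture class or gained the signature later was not tested. The 12 markers listed as squamous epithelial summed to 9049 CPM in signature-positive and 454 CPM in signature-negative culture cells. In the lung libraries they summed to between 13548 and 25316 CPM. Most of the sum in signature-positive culture cells was KRT18 (5570 CPM), KRT8 (1656 CPM) and KRT19 (1235 CPM). KRT5, KRT14 and KRT17 lay at 0.0318, 0.191 and 1.91 CPM there, so the sum does not measure these keratins. Of the endothelial markers, TIE1 had no UMI in any library and PECAM1, CLDN5 and TEK stayed under 0.1 CPM, while EGFL7 lay at 67.5 CPM in the culture itself. CDH5 was higher at 6 h, at 0.645 CPM (21 UMIs) against 0.0439 CPM (9 UMIs) in culture. ESAM lay at 1.16 CPM in culture and 1.35 CPM at 6 h. These are counts of human genes, and mouse cells could add to them only through reads that map to the human genome.

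The sequences upstream of F3, TFPI2 and PLAU are shown because these genes had contrasting early patterns: F3 and TFPI2 were highest at 6 h and more than 2-fold lower at 48 h, whereas PLAU at 6 h exceeded its 48 h level by 1.13-fold only. Each sequence is the 250 bases before the RefSeq start on GRCh38.p14, written 5′ to 3′ on the strand of the gene, at chr1:94541760-94542009 (minus) for F3, chr7:93890754-93891003 (minus) for TFPI2 and chr10:73910360-73910609 (plus) for PLAU. The F3 and TFPI2 windows lie next to the annotated starts of their genes. The PLAU window lies inside the annotated PLAU gene (chr10:73909177-73917496). Capitals mark matches to the letters of AP-1 (TGANTCA), EGR1 (GCGNGGGCG) and NF-kB (GGANTTTCC), searched on both strands.
F3: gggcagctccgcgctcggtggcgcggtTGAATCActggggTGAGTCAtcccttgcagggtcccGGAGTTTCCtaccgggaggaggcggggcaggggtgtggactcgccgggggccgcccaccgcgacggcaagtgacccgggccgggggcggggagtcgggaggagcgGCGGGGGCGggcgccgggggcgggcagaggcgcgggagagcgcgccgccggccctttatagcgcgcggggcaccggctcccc
TFPI2: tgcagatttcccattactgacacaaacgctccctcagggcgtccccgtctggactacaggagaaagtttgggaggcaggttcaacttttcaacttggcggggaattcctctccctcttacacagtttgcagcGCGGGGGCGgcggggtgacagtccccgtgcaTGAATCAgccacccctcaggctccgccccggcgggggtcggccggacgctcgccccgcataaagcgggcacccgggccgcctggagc
PLAU: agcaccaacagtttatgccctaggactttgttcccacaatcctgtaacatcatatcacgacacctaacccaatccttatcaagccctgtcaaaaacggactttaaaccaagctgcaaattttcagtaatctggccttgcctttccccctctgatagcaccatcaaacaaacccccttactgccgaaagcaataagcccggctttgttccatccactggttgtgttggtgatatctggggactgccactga

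Of the 7 members searched (all but PLAT and THBD), PLAUR, F3 and TFPI2 held the AP-1 letters, which 6.57% of 35116 windows of this length held, and the same 3 held the EGR1 letters, found in 8.41%. Both strings stood together in 0.194% of windows. F3 had AP-1 matches 223 to 217 and 210 to 204 bases before the start, and it was the only member with the NF-kB letters (1.45% of windows). The EGR1 matches of F3 and TFPI2 overlapped a match to GGGCGG, the SP1 string, which 42.6% of windows held and which SERPINE2 and PROCR held too. SERPINE2 alone held the E-box CACGTG (6.34%), and no member held the TEAD letters GGAATG (11.9%). The windows of PLAU and TFPI held none of the 6 strings. TFPI, like F3, was highest at 6 h, whereas PLAUR, with the AP-1 and EGR1 letters, was highest at 48 h. The windows of PLAU, PLAUR, SERPINE2 and TFPI lie inside the annotated genes, and the PLAUR window is all annotated untranslated sequence. A string absent here is absent from these windows only. These matches describe letters in these windows, and no binding was measured.

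The parental culture was compared first, because signature-positive cells made up most of each lung library. F3 stood at 196 CPM (95% interval 191 to 201) in the 1301 signature-positive cells and at 1.71 CPM (1.52 to 1.92) in the 7758 others, a ratio of 114 (102 to 129). PLAU stood at 55.6 against 0.802 CPM, a ratio of 69.4 (58.3 to 83.1). Tissue factor and urokinase thus lay under 2 CPM in the signature-negative cells, and their ratios exceeded those of 99.6% and 99.0% of the genes tested. TFPI, the inhibitor of the tissue factor complex, stood at 46.3 against 5.69 CPM, and PLAUR at 59.0 against 12.3 CPM. SERPINE2 was at 15.8 against 7.33 CPM, a log2 ratio of 1.01 that went below 1 in 5 of the other ways of counting. TFPI2, a Kunitz-type inhibitor of plasmin, differed less (7.15 against 4.92 CPM), and THBD was low in both classes (1.14 against 0.271 CPM). PLAT at 4.67 against 9.30 CPM and PROCR at 16.7 against 23.9 CPM were the members with the higher level in signature-negative cells.

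A gene was counted as past 2-fold where the log2 ratio with 1 CPM added was at least 1 or at most -1 and the gene had at least 5 CPM in either group. In this comparison 5 of the 8 members at that level were higher in signature-positive cells (PLAU, PLAUR, SERPINE2, F3 and TFPI), where 12.9% of 10718 genes were, and 0 were lower, where 18.9% of genes were. The median log2 ratio was 1.59 over these members and -0.26 over all genes.

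**Figure D1:**
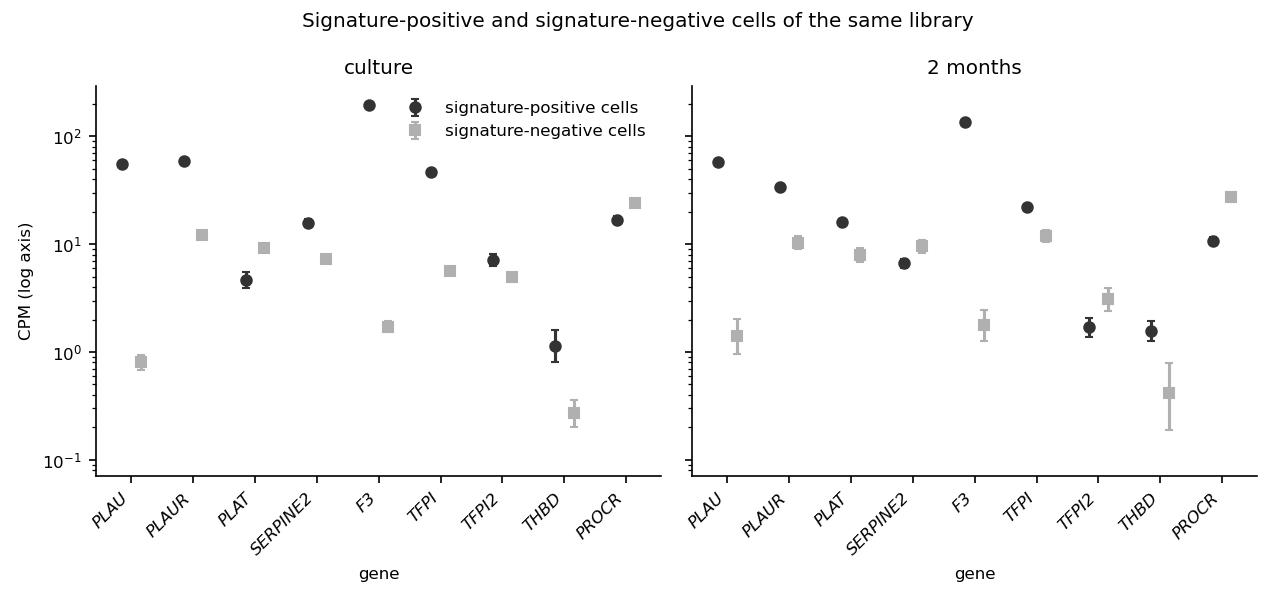
Level of each gene in CPM (log axis) in signature-positive (dark circles) and signature-negative (grey squares) cells of the culture and of the 2-month library, with 95% Poisson intervals. In both libraries F3 and PLAU are far apart between the classes, whereas PROCR is the higher in the signature-negative cells.

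The 2-month library was the other one with many signature-negative cells (628, with a median of 36830.5 UMIs). It gave the same contrasts for F3 and PLAU, the members furthest apart in culture. F3 stood at 136 CPM in the 2694 signature-positive and 1.78 CPM in the signature-negative cells, and PLAU at 58.0 against 1.42 CPM. PLAUR, at 34.1 against 10.3 CPM, and TFPI, at 22.2 against 11.9 CPM, kept the order of the culture. The classes were closer for TFPI than in culture. PROCR was again the higher in the signature-negative class, at 27.6 against 10.7 CPM. SERPINE2, at 6.62 against 9.61 CPM, TFPI2, at 1.69 against 3.11 CPM, and PLAT, at 16.1 against 8.01 CPM, had the opposite order to that in culture. The signature-negative cells of the other lung libraries were few (42 at 6 h, 51 at 48 h and 71 at 4 months) and shallow, with medians of 1552 to 1931 UMIs, and were not compared.

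Between culture and 6 h in the lung, urokinase had the largest ratio of the 9. PLAU was at 9.23 CPM in the whole culture and 55.6 CPM in its signature-positive cells, and reached 568 CPM (560 to 577) at 6 h, 505 CPM at 48 h, 42.7 CPM at 2 months and 147 CPM at 4 months. Its 6 h level was 61.6-fold (58.8 to 64.6) that of the culture and 10.2-fold (9.73 to 10.7) that of the signature-positive culture cells, a ratio above those of 99.5% of the genes tested. Urokinase was thus high at both early times and lowest among the lung libraries at 2 months. The intervals of all 5 libraries were apart.

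PLAUR, the urokinase receptor, lay at 19.5 CPM in culture and 59.0 CPM in signature-positive culture cells, then at 158 CPM at 6 h, 274 CPM at 48 h, 27.7 CPM at 2 months and 76.7 CPM at 4 months. Its peak was therefore at 48 h, when it was 1.73-fold (1.68 to 1.79) the 6 h level. SERPINE2 was also highest at 48 h, over a wider range: 8.63 CPM in culture, 15.8 CPM in its signature-positive cells, 80.3 CPM at 6 h, 207 CPM at 48 h, 7.43 CPM at 2 months and 34.1 CPM at 4 months. Unlike PLAUR it was lower at 2 months than in the whole culture. Against signature-positive culture cells both genes were lower at 2 months. From 48 h to 2 months it fell 27.8-fold (25.6 to 30.3), a lower ratio than that of all but 0.172% of genes.

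PLAT, the other plasminogen activator, did not share this course. It lay at 8.59 CPM in culture, 4.67 CPM in signature-positive culture cells, 7.53 CPM at 6 h, 6.75 CPM at 48 h, 13.9 CPM at 2 months and 26.4 CPM at 4 months. Its intervals in culture and at 6 h overlapped, as did those at 6 h and 48 h while those in culture and at 48 h did not. The late libraries were the highest, and the range over all 5 was 3.90-fold.

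F3 led the coagulation genes, with 31.5 CPM in culture, 196 CPM in signature-positive culture cells, 554 CPM (546 to 563) at 6 h, 264 CPM at 48 h, 99.6 CPM at 2 months and 129 CPM at 4 months. Tissue factor thus peaked at 6 h, at 2.83-fold (2.75 to 2.92) the signature-positive culture, and was 2.10-fold (2.05 to 2.14) lower at 48 h. Only 1.26% of genes had a lower ratio between 6 h and 48 h. TFPI, its inhibitor, changed in the same order over a narrower range: 11.9 CPM in culture, 46.3 CPM in signature-positive culture cells, 81.5 CPM at 6 h, 58.3 CPM at 48 h, 19.4 CPM at 2 months and 35.5 CPM at 4 months. At 6 h TFPI was 1.76-fold (1.65 to 1.88) the signature-positive culture, which is under 2-fold, although it was 6.83-fold the whole culture.

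TFPI2 had the briefest peak. It lay at 5.26 CPM in culture and 7.15 CPM in its signature-positive cells, then at 26.2 CPM at 6 h, 7.52 CPM at 48 h, 2.08 CPM at 2 months and 0.693 CPM at 4 months, where 87 UMIs were counted. Between 6 h and 48 h it fell 3.48-fold (3.07 to 3.95), and 0.312% of genes had a lower ratio. It was the only member that was lower in both late libraries than in signature-positive and in signature-negative culture cells.

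THBD and PROCR, the receptors of the protein C pathway, moved in opposite directions at first. THBD lay at 0.405 CPM in culture (1.14 CPM in signature-positive cells), 4.06 CPM at 6 h, 9.21 CPM at 48 h, 1.26 CPM at 2 months and 6.87 CPM at 4 months. PROCR gave 22.8 CPM in culture, 16.7 CPM in signature-positive culture cells, 8.42 CPM at 6 h, 20.4 CPM at 48 h, 15.3 CPM at 2 months and 21.0 CPM at 4 months. It was the only member with its lowest level at 6 h, and its 48 h and 4-month intervals overlapped.

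**Figure D2:**
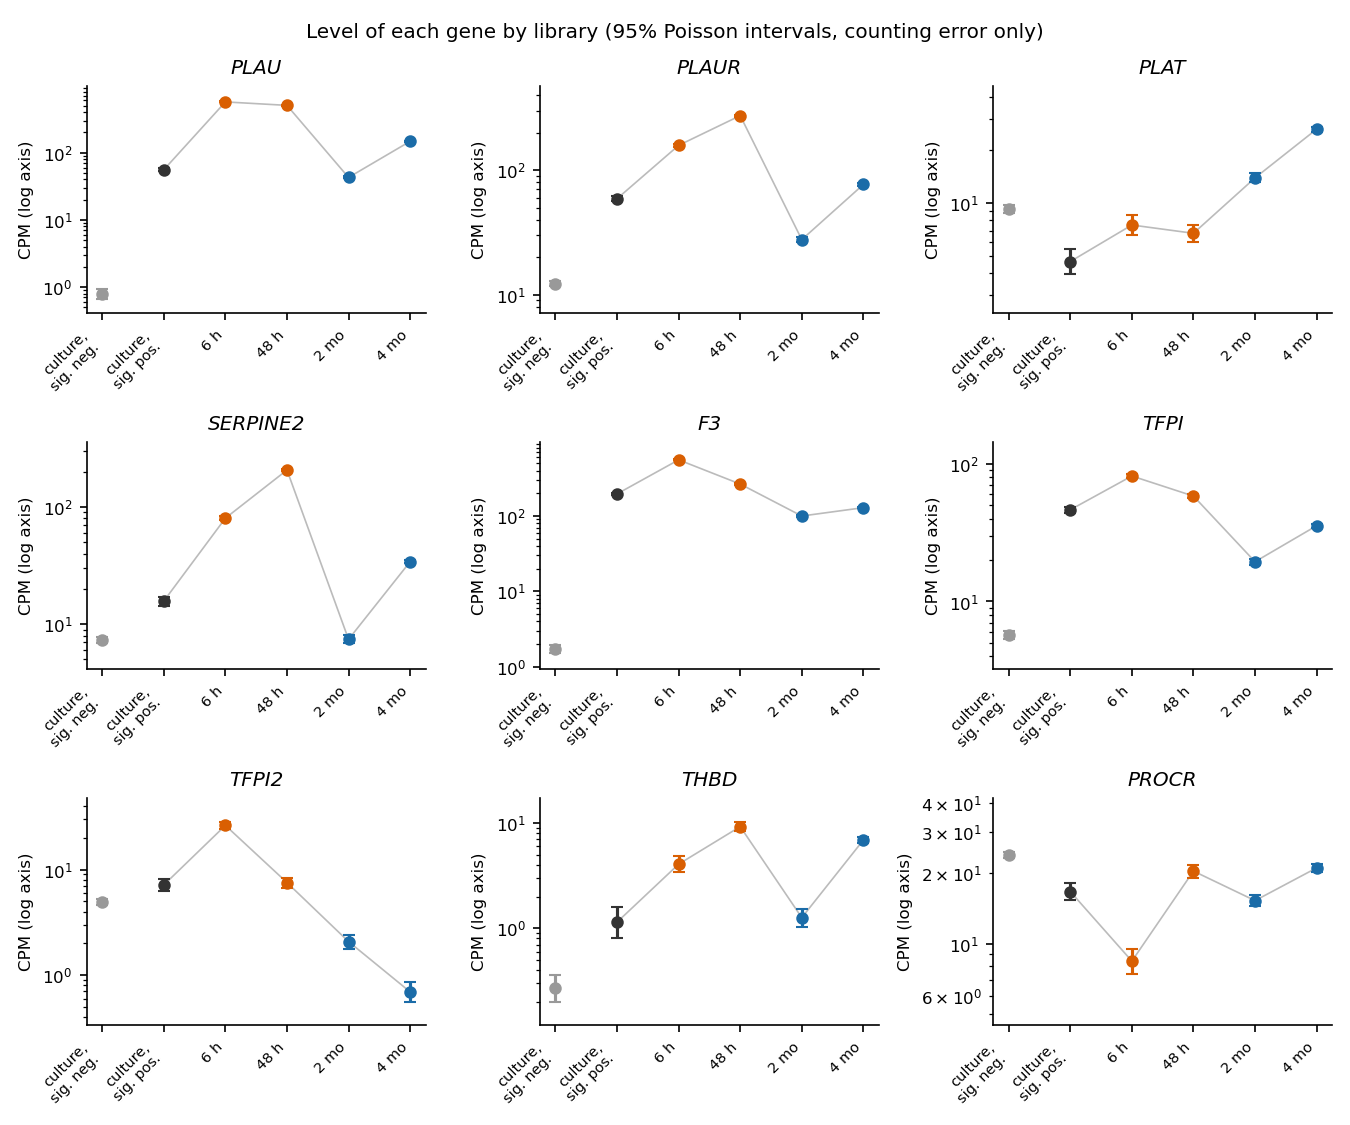
Level of each of the 9 genes in CPM (log axis, with its own range in each panel) in the classes of culture cells and in the lung libraries, with 95% Poisson intervals for counting error. PLAU, F3, TFPI and TFPI2 are highest at 6 h, PLAUR, SERPINE2 and THBD at 48 h, PLAT at 4 months, and PROCR is lowest at 6 h.

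At 6 h against the whole culture, 6 of the 8 members with enough UMIs were past 2-fold higher, where 17.2% of 10852 genes were, and 1 (PROCR) was lower, where 27.8% of genes were. All genes had a median log2 ratio of -0.29 and these members one of 2.82. Since most cells of each lung library were signature-positive, the second comparison took the signature-positive culture cells as the reference. There 5 of 8 members were higher (PLAU, PLAUR, SERPINE2, F3 and TFPI2), where 10.6% of 9934 genes were, and 0 were lower, where 12.3% were. TFPI (log2 ratio 0.80) and PROCR (-0.91) were the members past 2-fold against the whole culture only.

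From 6 h to 48 h the members split. SERPINE2, THBD and PROCR were past 2-fold higher, 3 of 9 where 3.24% of 9605 genes were, and F3 and TFPI2 were lower, 2 of 9 where 1.42% were. The calls of THBD (log2 ratio 1.01) and PROCR (1.18) rest on 132 and 274 UMIs at 6 h, and each went below 2-fold in at least 3 other ways of counting. Centred on the median of all genes (0.14), THBD was at 0.88. PLAU and PLAT differed little between these libraries, by 1.13-fold and 1.11-fold, each lower at 48 h, and for PLAT the interval of the ratio included 1.

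From 48 h to 2 months 7 of 9 members were past 2-fold lower, where 13% of 10445 genes were, and 0 were higher, where 12.2% were. The largest falls were in SERPINE2, PLAU (11.8-fold) and PLAUR (9.91-fold), followed by THBD (7.31-fold). F3 fell 2.66-fold over all cells but had a log2 ratio of -0.96 between signature-positive cells alone, which is under 2-fold. PROCR (-0.40) and PLAT (0.95) were the exceptions over all cells. In signature-positive cells alone PROCR was at 20.4 CPM at 48 h and 10.7 CPM at 2 months, and PLAT at 6.77 and 16.1 CPM.

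From 2 to 4 months PLAU (3.45-fold), PLAUR (2.77-fold), SERPINE2 (4.59-fold) and THBD (5.45-fold) were past 2-fold higher, 4 of 8 members where 3.03% of 10082 genes were. None was lower, where 9.38% of genes were, and the median of all genes was -0.24. Tissue factor was 1.29-fold (1.26 to 1.33) higher over all cells, but between signature-positive cells alone the direction turned, with 136 CPM (133 to 139) at 2 months and 129 CPM (127 to 131) at 4 months. In the same cells PLAU was at 58.0 and 147 CPM, PROCR at 10.7 and 21.1 CPM, and SERPINE2 at 6.62 and 34.1 CPM. The rise of PLAU was thus smaller in these cells than over all cells, and those of PROCR and SERPINE2 were larger. Centred on the median of all genes, PLAT and TFPI were past 2-fold too, so that 6 of 8 members were higher, where the calls over all genes went from 305 higher and 946 lower to 505 higher and 572 lower. In 4-month cells none of the early peaks was reached again: PLAU lay at 147 CPM against 568 CPM at 6 h, and SERPINE2 at 34.1 CPM against 207 CPM at 48 h.

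**Figure D3:**
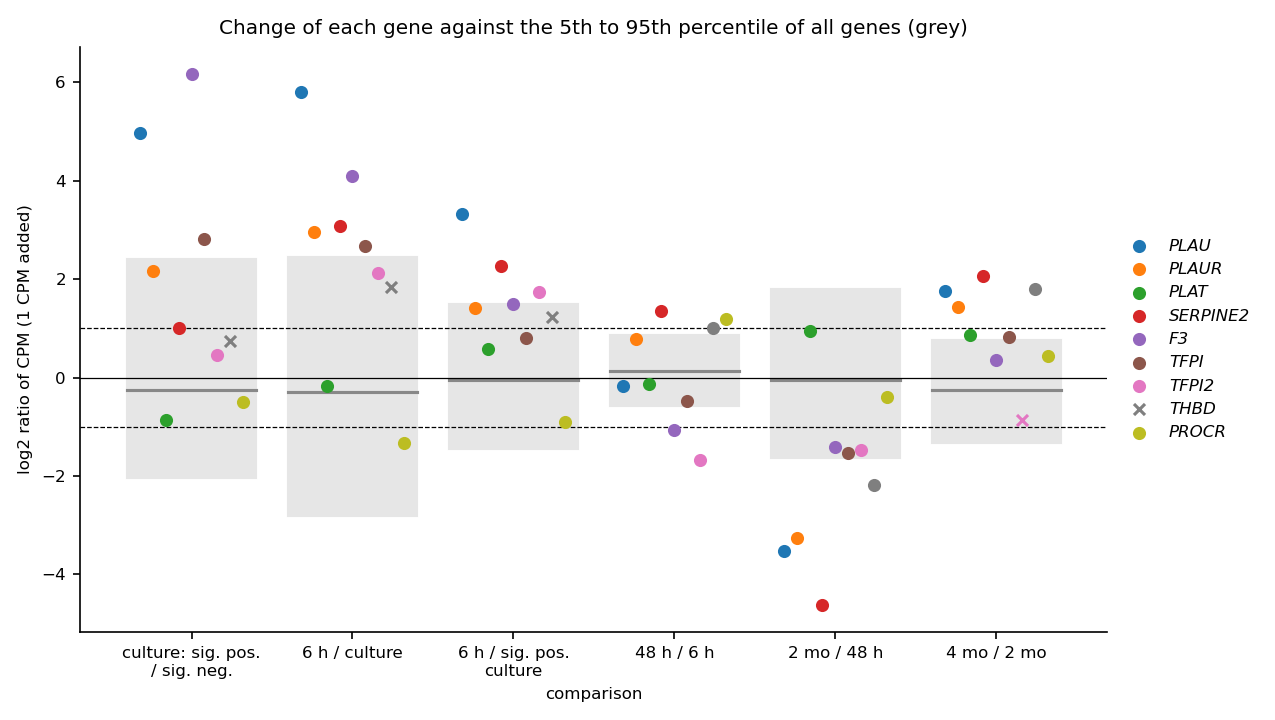
Log2 ratio of CPM (1 CPM added) of each gene in 6 comparisons, over grey bars from the 5th to the 95th percentile of all genes tested with the median as a line. Crosses are genes under 5 CPM in both groups, and dashed lines mark 2-fold. PLAU lies above the bar at 6 h in both comparisons with culture, F3 and TFPI2 lie below it from 6 h to 48 h, and PLAU, PLAUR and SERPINE2 lie far below it from 48 h to 2 months.

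Shares of cells were compared next. Cells with a PLAU UMI were 52.6% of signature-positive culture cells, 67.0% of 6 h cells, 85.0% of 48 h cells, and 36.5% and 74.5% of the 2-month and 4-month cells, against 1.74% of signature-negative culture cells. Median depth was 24854 UMIs in signature-positive and 22768.5 in signature-negative culture cells, 12979 in 6 h cells, 39076 in 48 h cells, and 21864.5 and 27559 in the 2-month and 4-month cells. With each cell thinned to 1000 UMIs the PLAU shares were 5.61%, 26.1% (24.1 to 28.1), 29.7% (27.0 to 32.4), 3.28% and 12.4% in that order, against 0.116%. For urokinase the 6 h and 48 h shares overlapped within their intervals at equal depth.

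Tissue factor gave a different order. F3 UMIs were seen in 83.2% of signature-positive culture cells and 79.4% of 6 h cells, against 3.53% of signature-negative culture cells, so that the unthinned share hardly moved. At 1000 UMIs a cell the F3 share was 15.1% in signature-positive culture, 31.0% in 6 h cells, 19.1% in 48 h cells, and 9.99% and 11.2% in the late libraries, against 0.142%. PLAUR shares thinned in the same way were 5.15%, 11.3%, 18.6%, 2.68% and 7.42% (1.21% in signature-negative culture), and those of SERPINE2 were 1.61%, 6.39%, 14.01%, 0.602% and 2.56% (0.877%). Those 2 genes again had their highest share at 48 h. The SERPINE2 share at 2 months (interval 0.368 to 0.928) overlapped that of signature-negative culture cells (0.681 to 1.11), and the 2 are not told apart at this depth. Unthinned, SERPINE2 was seen in 24.2% of signature-positive culture cells, 42.1% of 6 h cells, 67.4% of 48 h cells, and 12.5% and 23.7% of the late cells. The unthinned PLAUR shares were 62.2%, 60.2%, 82.9%, 31.7% and 57.0% in the same groups.

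TFPI was seen in 61.3% of signature-positive culture cells, 55.6% of 6 h cells, 70.5% of 48 h cells, and 32.0% and 52.2% of the late cells. Thinned, these shares were 4.53%, 8.23%, 5.13%, 2.38% and 3.96%, against 0.773% in signature-negative culture cells. The thinned TFPI2 share was 2.45% at 6 h (17.7% unthinned) and 0.696% at 48 h, against 0.3996% (9.72% unthinned) in signature-negative culture cells. PLAT, THBD and PROCR had thinned shares of at most 2.60% in both culture classes and in each whole lung library, and no order is read from them.

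Within a library the counts were spread unevenly over cells. The 10% of 6 h cells with the most PLAU UMIs held 58.2% of them, and a single cell held up to 355. For comparison, the deepest 10% of 6 h cells held 25.3% of all UMIs. At 4 months the corresponding 10% of cells held 82.9% of SERPINE2 UMIs, against 46.8% of PLAU UMIs, and SERPINE2 was seen in 23.7% of those cells and PLAU in 74.5%. SERPINE2 at 4 months was therefore the more concentrated of the pair.

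Thinned to 3000 UMIs, which left out 6 to 281 cells a group, cells with UMIs of at least 3 of the 9 genes were 25.5% at 6 h and 31.2% at 48 h. They were 5.95% of signature-positive and 0.105% of signature-negative culture cells, 1.52% at 2 months and 8.11% at 4 months. Urokinase and its receptor tended to share cells at 6 h: PLAU was seen in 59.5% of PLAUR-positive and 40.8% of PLAUR-negative cells. At 48 h the same shares were 65.0% and 49.9%. This was not particular to the receptor. PLAU was seen in 50.9% of F3-positive and 38.8% of F3-negative cells at 6 h, and in 61.9% and 52.3% at 48 h. F3 and TFPI2, which fell together after 6 h, did not share cells in this way, since F3 was seen in 51.6% of TFPI2-positive and 57.5% of TFPI2-negative cells at 6 h. The cells of a pair come from 1 library, and these shares are given as descriptions.

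The genes with the most similar profiles were found for the 5 members with at least 50 CPM in a group, among 3819 genes at that level, by the distance between centred log2 profiles over 6 groups (both culture classes and the 4 lung libraries). Nearest to PLAU were TUBA4A (r = 0.99), EMP1 and AC245041.2. EMP1 lay at 624 CPM at 6 h and 255 CPM at 48 h, and TUBA4A at 520 and 843 CPM. Nearest to PLAUR were CAVIN1, a caveolar coat protein, TNFRSF10D and RPL22L1. Integrins stood near SERPINE2, with ITGA5 first (21.6 CPM at 6 h, 103 CPM at 48 h, 1.76 CPM at 2 months), followed by FSTL3 and ITGAV. MALL, SOX15 and H2AFJ were nearest to F3, and RGS20, ITPR3 and CTTN (cortactin) to TFPI. The 6 points share depth and library within each group, and both culture classes come from 1 library.

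Among 16 other genes of the plasminogen system, chosen with results of these data known, 7 had enough UMIs at 6 h against signature-positive culture, of which 3 were higher (10.6% of all genes) and 0 lower (12.3%). ANXA2 and S100A10, which form a plasminogen-binding complex at the cell surface, went from 792 to 3652 CPM and from 2919 to 9758 CPM between signature-positive culture and 6 h, each past 2-fold. SERPINB2, a urokinase inhibitor, had no UMI in signature-positive culture cells (3 counts there are 0.0953 CPM) and 6.21 CPM at 6 h, then 1.39 CPM at 48 h. From 48 h to 2 months 0 of 7 were higher (12.2% of all genes) and 1, ANXA2, was lower (13%). From 2 to 4 months 1 of 7 was higher (3.03% of all genes), namely LRP1, an endocytic receptor for protease and inhibitor complexes, and 0 were lower (9.38%). The serine protease ST14 was at 28.8 CPM in signature-positive against 0.0346 CPM in signature-negative culture cells. Plasminogen itself (PLG) had no UMI in any library.

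Of 26 other coagulation factors and inhibitors, 7 had enough UMIs at 6 h against signature-positive culture, of which 2, ANXA5 and PROC, were higher (10.6% of all genes) and 1, F12, was lower (12.3%). ANXA5, an anticoagulant protein that covers exposed phosphatidylserine, was at 95.2 CPM in signature-positive culture cells, 394 CPM at 6 h, 349 CPM at 48 h and 111 CPM at 2 months. PROC, which encodes protein C, was low throughout, with 5.59 CPM at 6 h, 7.35 CPM at 48 h and 0.223 CPM at 2 months. F7, F9, FGA, FGB and F13A1 had no UMI in any library, so no RNA of the factor VII gene was detected in these cells. Factor VII protein, which plasma can supply, was not measured. PDPN, a podoplanin that binds a platelet receptor, was at 40.2 CPM in signature-negative and 3.37 CPM in signature-positive culture cells, and at 0.0922 CPM at 6 h. Of 4 thrombin and protease receptors, F2RL1 went from 7.91 CPM in signature-positive culture to 38.4 CPM at 6 h, and F2R was at 2.60 CPM and 1.23 CPM.

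The early changes came together with changes in genes that respond quickly to stress and to cell dissociation. The 16 immediate early and dissociation genes summed to 1031 CPM in signature-positive culture cells, 5470 CPM at 6 h, 9748 CPM at 48 h, 3820 CPM at 2 months and 6563 CPM at 4 months. At 6 h 15 of the 16 were higher than in signature-positive culture (10.6% of all genes) and 0 lower (12.3%). From 48 h to 2 months 11 were lower (13% of all genes) and 0 higher (12.2%), and from 2 to 4 months 10 were higher (3.03%) and 0 lower (9.38%). The lung cells went through lung digestion and sorting, and the stay in the lung and that handling cannot be told apart. The part of this response in the levels of the 9 genes was not tested. Between 6 h and 48 h, 7 of the 16 genes were higher (3.24% of all genes) and 0 lower (1.42%), and of the members SERPINE2, THBD and PROCR were higher and F3 and TFPI2 lower.

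Markers of other cells were low in sums over whole libraries but not in all kept cells. The counts are of human genes on GRCh38, whereas the host lung is mouse. Low sums therefore do not measure how many mouse cells were left. The 51 signature-negative cells at 48 h had fibroblast markers at 4093 CPM, in 78.4% of these cells. Markers listed as squamous epithelial were seen in 58.8% of them. The 42 signature-negative cells at 6 h had leukocyte markers at 3465 CPM, nearly all of it LYZ in 3 cells. Over whole libraries, the 10 endothelial markers summed to 68.9 CPM in culture, and to 125 CPM in its signature-positive cells. In the lung libraries they summed to between 52.0 (2 months) and 95.2 CPM (48 h), most of it EGFL7. The 7 platelet markers summed to at most 2.90 CPM in every library, with GP1BB at 0 in all 5, and the 4 red cell markers to at most 0.615 CPM. The 8 leukocyte markers summed to 3.92 CPM in culture and 2.25 to 44.5 CPM in the lung, the highest at 6 h, where LYZ gave 17.5 CPM from 10 cells. The 6 lung epithelial markers summed to 0.981 CPM in culture and to at most 5.80 CPM in the lung. Fibroblast markers (8 genes) summed to 2.37 to 13.6 CPM in the lung libraries, the highest at 48 h. In signature-positive cells alone F3 was at 556 CPM at 6 h and 265 CPM at 48 h, and PLAU at 571 and 506 CPM, near the whole-library levels. These cells hold 32377837 of 32540023 UMIs at 6 h and 46681938 of 46784057 at 48 h. The closeness therefore follows from their share of the UMIs and is no check on other cells.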

How the data were processed

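UMI counts of KYSE30-Luc-GFP cells came from 5 single-cell 3′ libraries, 1 of the culture and 1 for each of the 4 times in the lung. The authors deposited raw UMI counts per gene and barcode, without normalization. The file header names software 3.0.2, and the submitters' processing notes name Cell Ranger 3 and GRCh38. Cells had 200 to 8000 genes, 1000 UMIs or more, and mitochondrial UMIs up to 15%. Doublets were kept and no caller was run. Signature-positive cells followed the filter of the study with 1 of its genes not used here.

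UMIs were summed per group and divided by the group's total (CPM). CPM have exact Poisson intervals, shares Clopper-Pearson intervals and ratios conditional binomial intervals, at 95%. A count of 0 allows up to 3 counts. Ratios were tested on simulated counts. Thinning to 1000 UMIs per cell was run on a subset of culture cells, where only the cell totals were checked. Thinning to 3000 UMIs per cell was not checked in this way. No test between groups was made, because a group is 1 library.

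The members and lists were chosen with earlier results of these data known. Named genes were the 9 members, at most 4 genes with the largest ratios per pathway list and comparison, and the 3 nearest profiles of each member at 50 CPM or more. Pathway genes named for having no UMI, and markers named in the text, were chosen after their values were seen. A gene of the plasminogen list is not reported here. Gene coordinates are from GENCODE 44 on GRCh38 and promoters from RefSeq on GRCh38.p14. Python 3.11.15, numpy 2.4.6, scipy 1.17.1, pandas 2.3.3 and matplotlib 3.10.9 were used.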

Additional observations from a re-analysis of the deposited data

How the results depend on the processing

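The 33 changes past 2-fold were recomputed under 15 alternatives (cell filters, added CPM, minimum CPM, equal weight per cell, scaling, thinning, signature rules and marker filters), 1 of which, leaving out cells with UMIs of non-tumor markers under 1 CPM in culture, was chosen after seeing the data. Of 485 values, 467 stayed past 2-fold in the same direction, 18 of 8 changes went under 2-fold and 0 reversed. The sizes were less stable: over all member ratios, called or not, 370 values shifted by more than the half-width of their counting interval and 500 did not. The intervals given above therefore do not cover the effect of processing. Some of the unchanged values were fixed in advance. A changed minimum CPM leaves every log2 ratio as it was, and genes under the raised minimum were left out of these counts. The stricter signature rule changes only the culture classes, so the other ratios could not move under it. With 5 CPM added, the members past 2-fold from 6 h to 48 h went from 5 to 3, with SERPINE2, F3 and TFPI2 remaining and THBD (0.65) and PROCR (0.92) under 2-fold. No share over all genes is given for this setting. With 5 CPM added, TFPI2 from 48 h to 2 months (-0.82) and THBD from 2 to 4 months (0.92) were also under 2-fold. Without cells with 2 or more non-tumor marker UMIs, F3 from 48 h to 2 months was at -0.79. This planned filter left 251 of 1149 cells at 48 h and 2130 of 3322 at 2 months. It also removes line cells, since the culture itself expresses EGFL7. Another scaling left mitochondrial and ribosomal protein genes out of CPM. At 6 h against signature-positive culture it gave 6 members past 2-fold higher and 1 lower, instead of 5 and 0. THBD higher and PROCR lower were added. Of 10709 genes, 927 were higher and 1794 lower in that comparison. From 48 h to 2 months 1 member was higher and 7 lower instead of 0 and 7 (PLAT higher). There 1943 of 11203 genes were higher and 1108 lower. Among the genes past 2-fold, this scaling moved the share of higher calls from 46.2% to 34.1% and from 48.4% to 63.7% in these comparisons. Centring moved it from 40.6% to 56.5% between culture classes, 38.3% to 51.3% at 6 h against culture, 69.6% to 51.4% from 6 h to 48 h and 24.4% to 46.9% from 2 to 4 months. Depth limits THBD, with 36 UMIs in signature-positive culture cells, and TFPI2 at 4 months. No paired analysis was possible because each timepoint has 1 library.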
